A study of Mus musculus with 12 samples.

Results

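The transcripts described here were those with no overlap between the groups and a higher level in cryptorchid spermatogonia. A gene belonged to them where log2 of its mean RPM (reads scaled to the library total, over 12 libraries) was above -1, its lowest cryptorchid value was above its highest control value, and its mean log2 RPM was more than 1 higher in cryptorchid than in control libraries. Of 21859 genes measured, 16932 passed the expression limit, 94 of these were fully separated with higher values in cryptorchid, and 67 of them also passed the size limit. *Vat1l*, *Smoc1*, *Nlrc5*, *Fancb*, *Kdr* and *Cd2*, which met all criteria, were left out, and 61 genes remained. In the opposite direction, 48 genes were fully separated and 30 of them were lower by more than 1. The genes were thus chosen by the log2 RPM values of all 12 libraries, so their values are a description. The limma SE and *P*-values given for them below come from the same libraries and support nothing.

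RNA-seq was performed on GFRa1+/KIT- spermatogonia of mice whose genotype is labelled WT, and by the study's methods they carried GFRa1-EGFP, a reporter for the gene of the GDNF co-receptor. Surgery at 8 to 10 weeks of age placed the left testis in the abdomen, and the testis was taken on day 10, while the right testis of the scrotum was the control. There were 5 control and 7 cryptorchid libraries. Testes were digested for 9 min at 32 °C in the control group and at 37 °C in the cryptorchid group, so the digestion temperature cannot be told apart from the condition. About 1000 sorted cells gave the RNA, and RNA of about 200 cells entered a Smart-seq2 library (full-length cDNA amplified by PCR, without molecular identifiers). The sources do not say which libraries come from the same mouse, and the labels name no separate animals, so the spread between libraries may be technical.

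A testis held in the abdomen stays at body temperature, which is higher than that of the scrotum. Undifferentiated spermatogonia, the population that holds the stem cells, carry the receptor GFRa1 for the Sertoli cell factor GDNF, and they display KIT at the surface once they commit to differentiation. Cells kept at a raised temperature switch on heat shock genes when the factor HSF1 binds repeats of the short unit GAA, or TTC on the other strand, in promoters.

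Reads on genes ranged from 4511730 to 24345368 in control (median 7603202) and from 3306771 to 20027902 in cryptorchid libraries (median 4611830). The values come in steps of whole reads, and a gene without reads is listed at the value of 0.9 reads. Replicates 1 to 3 of both groups had 6800360 or more reads and those from replicate 4 on had 5481947 or fewer, and these sets of replicates (3 control and 3 cryptorchid libraries, then 2 and 4) are kept apart below; the labels do not say what separates them. The median log2 RPM over all genes tested was 3.88 to 4.55 in control and 3.94 to 4.5 in cryptorchid libraries. Over all genes tested, the median log2 difference between the groups was 0.10, and 0.555% were fully separated with higher values in cryptorchid (0.396% with the size limit). By limma, 603 genes were higher (at least 2-fold with an unadjusted *P*-value under 0.05; 3.56%) and 399 were lower. Higher genes thus made up 60.2% of these calls, against 45.7% after quantile normalization.

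**Figure D1:**
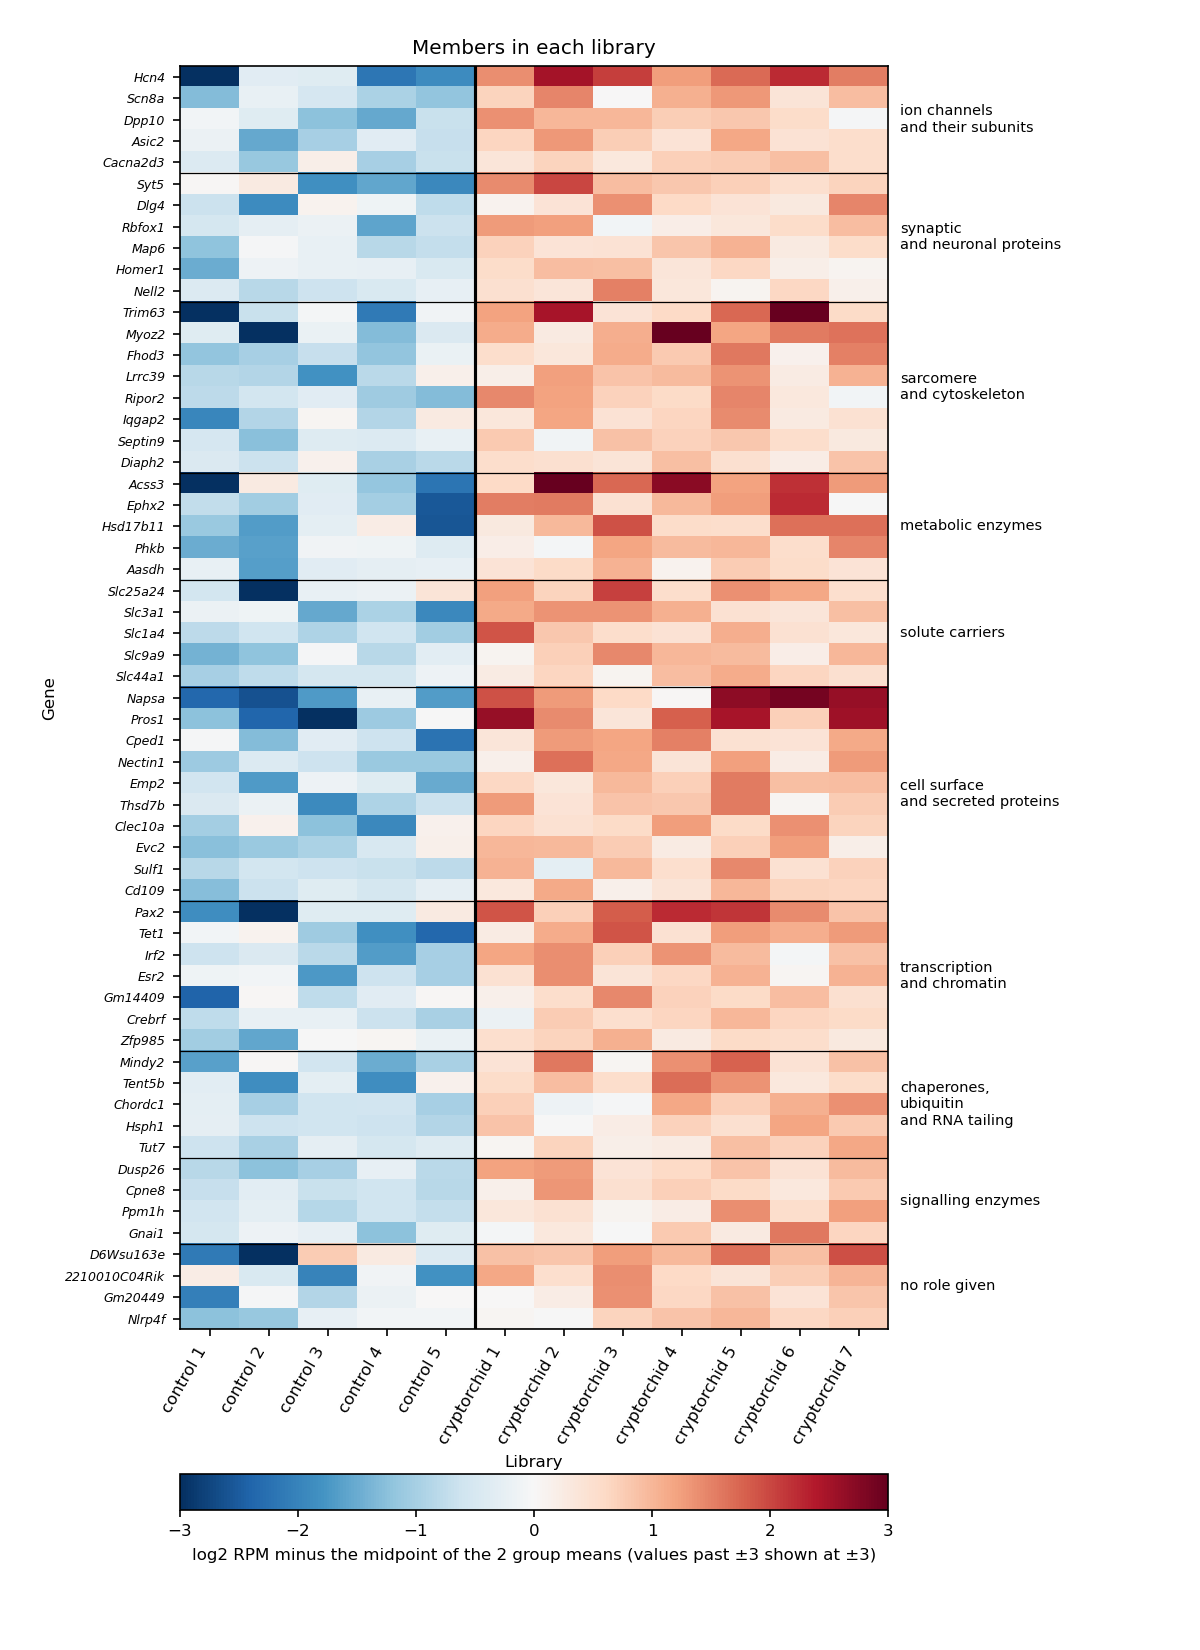
Level of 59 of the 61 genes (rows, by function) in each of the 12 libraries (columns), as log2 RPM minus the midpoint of the control and cryptorchid means of that gene. The 5 control columns are mostly blue (lower) and the 7 cryptorchid columns mostly red (higher), and the palest rows are those with a difference near 1.

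The 61 genes had a median log2 difference of 1.55 (2.94-fold), from 1.01 for *Gnai1* to 3.69 for *Acss3*. Deviations were taken from the midpoint of each gene's control and cryptorchid means. Averaged over the 61 genes, they were -1.13 (replicate 1) to -0.62 (replicate 3) in the control libraries and 0.75 (replicate 1) to 1.04 (replicate 5) in the cryptorchid libraries. The rule asks for full separation of every gene, so this average had to lie higher in each cryptorchid library than in each control. The lowest cryptorchid value was above the highest control value by a median of 0.23 on the log2 scale, from 0.001 for *Dlg4* to 1.6 for *Hcn4*. The highest control value belonged to replicate 2 for 18 genes, to replicate 3 for 15 and to replicate 5 for 14, so no single control library set the edge. The lowest cryptorchid value was in replicate 1 for 14 genes and in replicate 5 for 2.

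Full separation depended on the scaling more than the size did. With the library medians aligned, 30 of the 61 genes still met the rule, and with quantile normalization 26 did; 25 met it under all 3 scalings. These 25 included *Hcn4*, *Pros1*, *Pax2*, *Dusp26*, *Slc1a4*, *Asic2*, *Chordc1*, *Hsph1*, *Slc44a1*, *Emp2* and *Sulf1*. The log2 difference stayed above 1 for 58 of 61 genes under each of the other scalings and was nowhere below 0.94.

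The limits of the rule fell within a continuous range of values. Just inside the size limit were *Gnai1* (1.01), *Nell2* (1.02) and *Homer1* (1.03), and just outside were *Odr4* (0.96), *Zfp235* (0.96) and *Echdc1* (0.92). Just inside the separation limit, with gaps of 0.001, 0.002 and 0.007, were *Dlg4*, *Iqgap2* and *Gm20449*. Just outside, with overlaps of 0.003, 0.010 and 0.012, were *Gpr137c*, *Dpysl2* and *Rhox2g*, whose log2 differences were 1.21, 1.93 and 3.70.

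Reads behind the values were few for a part of the genes. Of the 61, 44 had at least 10 reads in all 12 libraries, and 5, *Acss3*, *Napsa*, *Trim63* and *Myoz2* among them, had a control library without reads. The expression limit was passed on the control libraries alone by 59 genes. Since these 12 libraries chose the genes, all 61 were past 2-fold and an unadjusted *P*-value of 0.05 by limma, and none passed after Benjamini-Hochberg adjustment over all genes (0.104 to 0.459). At that level 1 gene of 16932 was higher (0.00591%), *Vat1l*. Both counts are from the unpaired fit and depend on it. With a term for the replicate set 7 of the 61 passed, with array weights 41 and with a replicate block 45. The libraries that chose the genes enter all of these fits, so none of the counts is support. Leaving out single libraries changed the number of genes that met the rule, from 69 to 129, since fewer libraries have to be separated. The number was 129 without control replicate 3, 106 without control replicate 5, 105 without cryptorchid replicate 2 and 126 without cryptorchid replicate 3.

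Below, levels are in log2 RPM, control levels follow the order of replicates 1 to 5, cryptorchid levels are given as the lowest to the highest library with the median, and differences are cryptorchid minus control means on the log2 scale.

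The chaperone, ubiquitin and RNA tailing group held 5 genes, with log2 differences from 1.11 to 1.85. *Hsph1* encodes HSP110, a nucleotide exchange factor of HSP70, and had the highest mean RPM of the 61 (RPM is not scaled to gene length). It stood at 6.62, 6.26, 6.29, 6.28 and 6.02 log2 RPM in control replicates 1 to 5 and at 6.89 to 8.08 (median 7.57) in cryptorchid libraries. The lowest cryptorchid library, replicate 2, lay 0.27 above the highest control, replicate 1, and the difference was 1.20 (SE 0.25), or 2.3-fold, and was 0.86 in replicates 1 to 3 and 1.53 in replicates 4 and above. *Chordc1* encodes the HSP90 co-chaperone morgana. Its control levels were 5.33, 4.63, 5.01, 5.05 and 4.63, and its cryptorchid levels ran from 5.48 to 7.0 (median 6.35). Cryptorchid replicates 2 and 3 (5.48 and 5.58) were close to the controls, and the other cryptorchid libraries were at 6.34 or above, for a difference of 1.39 (SE 0.30).

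The RefSeq promoters of these chaperone genes and of the channel gene *Hcn4* were the only ones among the 45 members with a promoter window that held 3 adjoining heat shock units (GAANNTTCNNGAA or TTCNNGAANNTTC, both strands searched, 250 bases before to 50 after the start). They are printed 5′ to 3′ on the gene's strand (GRCm38.p6), with runs of units spaced as GAANNTTC or TTCNNGAA in capitals, so that a reader can see the repeat behind this match. The *Hsph1* sites lie before and after one of its RefSeq starts on the minus strand, at chr5:149636351-149636380 (2 units) and chr5:149636287-149636316 (3 units); the *Chordc1* site spans its RefSeq start on the plus strand at chr9:18292260-18292289; and the *Hcn4* stretch ends at its RefSeq start on the plus strand, at chr9:58822835-58822948.
Hsph1 before the start: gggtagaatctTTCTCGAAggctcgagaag
Hsph1 after the start: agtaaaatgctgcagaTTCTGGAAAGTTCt
Chordc1: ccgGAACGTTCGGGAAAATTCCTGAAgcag
Hcn4: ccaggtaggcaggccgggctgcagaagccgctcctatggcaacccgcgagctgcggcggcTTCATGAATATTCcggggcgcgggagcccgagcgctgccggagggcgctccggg
The 3-unit match was found for 0.557% of the 13114 genes tested that had a window and for 0.662% of all 27025 genes with one. Windows were found for 73.8% of the members, under the 80% needed for a comparison over the set, so the shares of this and other promoter motifs among the members were not compared. GENCODE vM21, used for gene positions below, places the starts differently (chr9:18292125 for *Chordc1* and chr9:58823412 for *Hcn4*, both outside the printed stretches, and chr5:149636376 for *Hsph1*, within the first of them). A match in letters does not show binding.

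Of the 12 heat shock genes listed, 10 had higher mean levels in cryptorchid libraries (median log2 difference 0.30), beside 9596 of the 16932 genes tested. The other 2, *Hspa1a* and *Hspa1b*, had lower means, with log2 differences of -1.02 and -0.96. By limma at the 2-fold limit, *Hsph1* alone was called higher and none was called lower. The rest of this group turns over proteins or RNA. *Mindy2*, a deubiquitinase for long K48-linked chains, stood at 1.56, 3.22, 2.63, 1.71 and 2.22 in control and 3.25 to 4.96 (median 4.06) in cryptorchid libraries. Control replicate 2 was the highest control and almost reached cryptorchid replicate 3, with a gap of 0.03, and the difference was 1.85 (SE 0.46). *Tent5b*, of a family of non-canonical poly(A) polymerases, was low in both groups, with 1.09, -0.45, 1.11, -0.46 and 1.53 in control and 1.72 to 3.07 (median 1.96) in cryptorchid libraries. The groups were 0.19 apart and differed by 1.68 (SE 0.61). *Tut7*, which adds uridines to RNA ends, differed by 1.11. All 5 genes of this group had a larger difference in replicates 4 and above than in replicates 1 to 3, with group medians of 1.84 and 0.92.

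Transcription and chromatin accounted for 8 genes, with log2 differences from 1.11 to 3.17. *Pax2*, a paired-box factor of kidney and genital tract development, was near the limit of detection in control libraries. Its control values were -1.15, -4.85, 0.35, 0.35 and 1.0, where replicate 2 rested on 1 read, and its cryptorchid values were 1.43 to 2.96 (median 2.54). All cryptorchid libraries were above the highest control, replicate 5, and the difference of 3.17 (SE 0.90) was 4.08 in replicates 1 to 3 and 1.72 in replicates 4 and above. *Tet1* encodes a dioxygenase that oxidises 5-methylcytosine. It ranged over 2.09, 2.28, 1.11, 0.35 and -0.17 in control and 2.43 to 4.06 (median 3.29) in cryptorchid libraries. Control replicates 4 and 5 were the lowest controls, and the difference of 2.09 (SE 0.57) was larger in replicates 4 and above (3.11) than in replicates 1 to 3 (1.43).

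*Irf2* encodes an interferon regulatory factor and differed by 1.83. Of 16 interferon-stimulated genes tested, 9 had higher means in cryptorchid (median log2 difference 0.26), beside 9596 of the 16932 genes tested. None of the 16 was called lower by limma. *Crebrf* encodes a regulator of the factor CREB3 and was among the 6 genes with the highest mean RPM. It stood at 6.06, 6.60, 6.61, 6.17 and 5.85 in control and 6.66 to 7.82 (median 7.47) in cryptorchid libraries. Cryptorchid replicate 1 (6.66) was within 0.05 of the highest control, while the other cryptorchid libraries were at 7.32 or above, for a difference of 1.13 (SE 0.25) that was 0.76 in replicates 1 to 3 and 1.53 in replicates 4 and above. The estrogen receptor gene *Esr2* differed by 1.42, and the zinc finger genes *Gm14409* and *Zfp985* by 1.38 and 1.11. Both belong to families of near-identical copies, so their reads are uncertain.

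Ion channels were represented by 5 genes. *Hcn4*, a cation channel of cardiac pacemaker cells, had the widest gap of all 61. In control libraries it stood at -3.61, 0.36, 0.35, -1.46 and -1.17 (2 to 37 reads), and in cryptorchid libraries, on 18 to 102 reads, at 1.96 to 3.19 (median 2.40). Every cryptorchid library was at least 1.6 above every control, and the difference of 3.62 (SE 0.75) was 3.66 in replicates 1 to 3 and 3.70 in replicates 4 and above. *Asic2* encodes an acid-sensing sodium channel. Its levels were 4.73, 3.38, 3.93, 4.57 and 4.23 in control and 5.34 to 6.22 (median 5.56) in cryptorchid libraries, with a gap of 0.60. Control replicate 1 was the highest control and cryptorchid replicates 2 and 5 were the highest, and the difference was 1.49 (SE 0.30). *Scn8a*, a voltage-gated sodium channel of neurons, ranged over 2.84, 3.92, 3.64, 3.19 and 2.95 in control and 4.16 to 5.61 (median 5.06) in cryptorchid libraries. Control replicate 2 came within 0.24 of cryptorchid replicate 3, and the difference was 1.66 (SE 0.35). The auxiliary subunit genes *Dpp10* (potassium channels) and *Cacna2d3* (calcium channels) differed by 1.55 and 1.21.

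**Figure D2:**
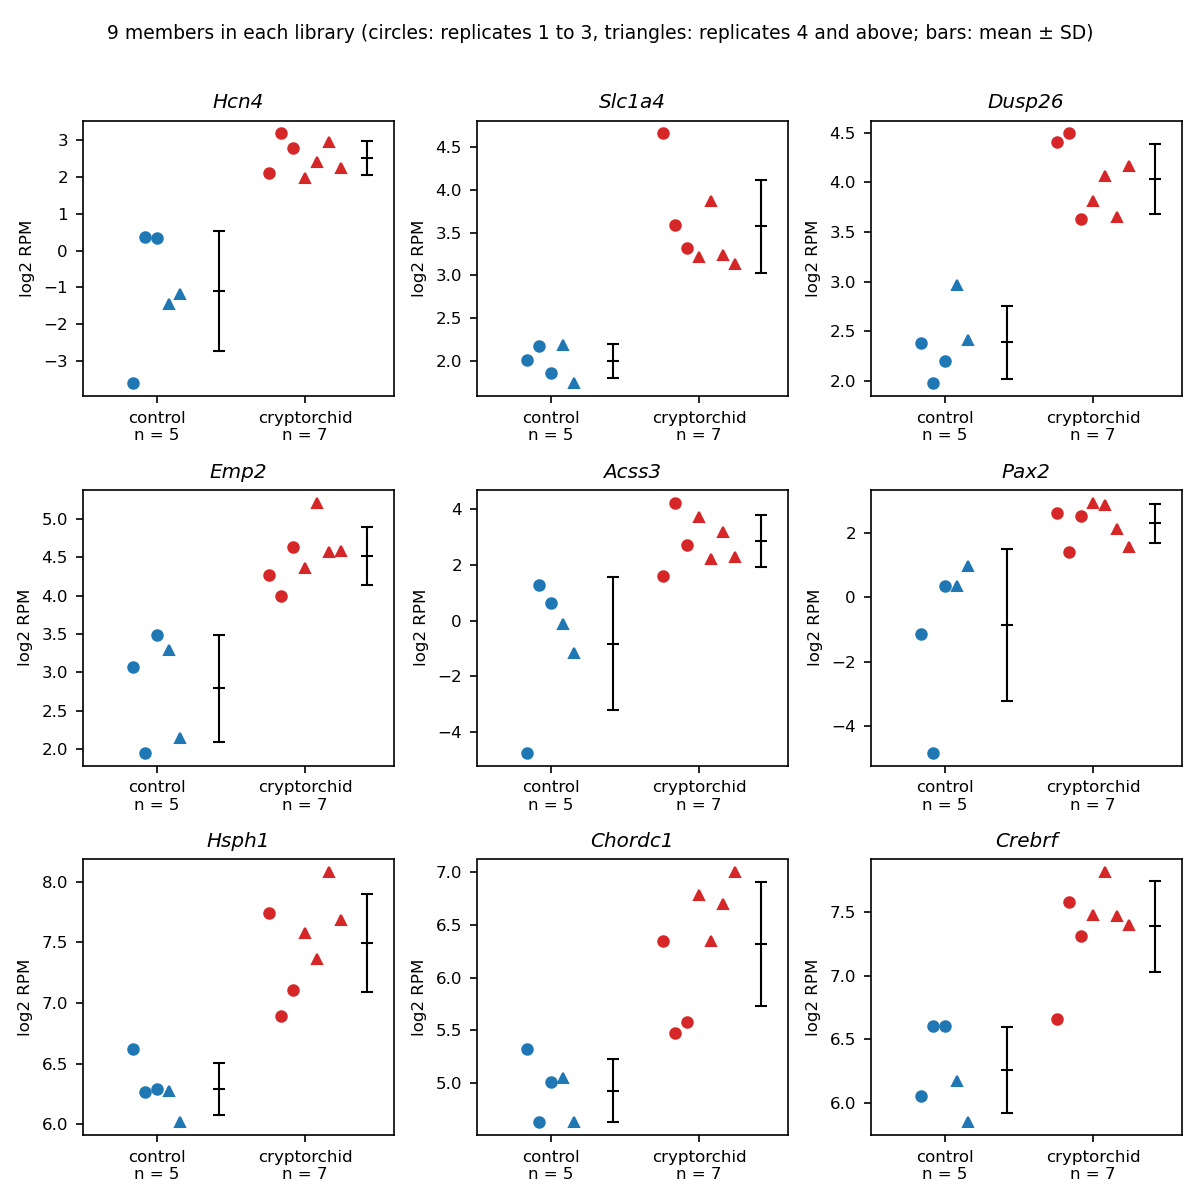
Level of 9 of the genes in each library (log2 RPM, separate axes); circles are replicates 1 to 3, triangles are replicates 4 and above, and bars give the mean ± SD of each group. In each panel the lowest of the 7 cryptorchid points lies above the highest of the 5 control points, with the widest gap for *Hcn4* (1.6) and a gap of 0.05 for *Crebrf*.

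Synaptic and neuronal proteins made up 6 genes with a median difference of 1.24. *Syt5*, a synaptotagmin of secretory vesicles, had control levels of 2.61, 2.83, 0.74, 1.0 and 0.63 and cryptorchid levels of 3.06 to 4.57 (median 3.37). Control replicates 1 and 2 were well above the other controls and cryptorchid replicates 1 and 2 were the highest of their group, and the difference of 2.01 (SE 0.54) was 1.96 in replicates 1 to 3 and 2.42 in replicates 4 and above. *Dlg4* encodes the postsynaptic scaffold PSD-95. It stood at 4.03, 2.78, 4.78, 4.55 and 3.91 in control and 4.78 to 6.13 (median 5.09) in cryptorchid libraries. Control replicate 3 and cryptorchid replicate 1 were equal to the second decimal, so the separation had no margin, and the difference was 1.33 (SE 0.37). *Homer1*, another postsynaptic scaffold, *Rbfox1*, a neuronal splicing factor, *Map6*, a microtubule stabiliser, and the secreted *Nell2* differed by 1.03, 1.27, 1.21 and 1.02.

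Sarcomere and cytoskeleton genes were 9, with a median difference of 1.67, and *Trim63* and *Myoz2* among them had few reads. *Trim63* encodes the muscle ubiquitin ligase MuRF1. Its control values were -4.76, -1.15, -0.54, -2.61 and -0.59, with no reads in replicates 1 and 4, and its cryptorchid values were -0.07 to 2.62 (median 0.73) on 5 to 44 reads. The groups were 0.47 apart, and the difference of 2.89 (SE 0.90) was 2.18 on a common floor for genes without reads. *Myoz2*, a calcineurin-binding protein of the Z disc, stood at -0.52, -5.0, -0.35, -1.46 and -0.59 in control and 0.10 to 2.96 (median 1.04) in cryptorchid libraries. Control replicate 2 had no reads and cryptorchid replicate 4 was the highest, and the difference was 2.85 (SE 0.89). *Fhod3* (a cardiac formin) and *Lrrc39* (of the sarcomere M band) differed by 1.71 and 1.67. The cytoskeletal genes *Ripor2*, *Iqgap2*, *Septin9* and *Diaph2* differed by 1.61, 1.36, 1.11 and 1.10.

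Metabolic enzymes were 5 genes, which included the largest difference. *Acss3* encodes an acyl-CoA synthetase of mitochondria that uses short-chain acids. Control values were -4.76, 1.28, 0.65, -0.14 and -1.17 and cryptorchid values 1.61 to 4.25 (median 2.74). Control replicate 1 had no reads and control replicate 2 had 70, and the difference of 3.69 (SE 0.91) was 2.71 without control replicate 1. The soluble epoxide hydrolase gene *Ephx2* had 1.64, 1.32, 2.04, 1.35 and -0.17 in control and 2.36 to 4.62 (median 3.62) in cryptorchid libraries. Control replicate 5 was the lowest, and the difference was 2.28 (SE 0.55). *Hsd17b11*, a dehydrogenase of lipid droplets, stood at 0.30, -0.26, 1.11, 1.63 and -1.17 in control and 1.69 to 3.32 (median 2.38) in cryptorchid libraries. Control replicate 4 almost reached cryptorchid replicate 1, with a gap of 0.06, and the difference was 2.17 (SE 0.65). *Phkb*, a subunit of phosphorylase kinase, and *Aasdh*, an acyl-CoA synthetase family member, differed by 1.5 and 1.09.

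The solute carriers numbered 5. *Slc1a4*, which exchanges small neutral amino acids, was the carrier with the cleanest separation. It held at 2.01, 2.18, 1.86, 2.19 and 1.73 in control and reached 3.13 to 4.67 (median 3.32) in cryptorchid libraries. The controls lay within 0.45 of each other, all were at least 0.95 below the cryptorchid libraries, and the difference was 1.58 (SE 0.44). *Slc3a1*, a subunit of the cystine transporter, stood at 1.90, 1.96, 0.56, 1.13 and 0.15 in control and 2.46 to 3.44 (median 3.15) in cryptorchid libraries. Control replicates 1 and 2 were the highest controls, 0.50 below the lowest cryptorchid library, and the difference was 1.89 (SE 0.53). *Slc25a24* carries ATP-Mg and phosphate into mitochondria. Its levels were 2.55, -1.68, 2.90, 2.93 and 3.50 in control and 3.61 to 5.17 (median 4.27) in cryptorchid libraries. Control replicate 2 was far below the other controls, and the difference of 2.14 (SE 0.71) was 1.21 without it. The choline transporter gene *Slc44a1* had 4.84, 5.08, 5.30, 5.30 and 5.68 in control and 5.92 to 6.95 (median 6.47) in cryptorchid libraries. Control replicate 5 was the highest control, 0.24 below cryptorchid replicate 3, and the difference was 1.18 (SE 0.25). *Slc9a9*, a sodium-proton exchanger of endosomes, differed by 1.54.

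The largest group, with 10 genes, coded for cell surface and secreted proteins. *Napsa*, the aspartic protease napsin A of lung and kidney, had at most 3 reads in every control library (11 in all) and 134 in the cryptorchid libraries. The ratio of summed reads, each scaled to the summed library totals, was 15.1-fold (exact 95% interval 8.18 to 31.0, counting error only). The same reads chose the gene, and the interval leaves out the spread between libraries, so it is no support. With a control mean of 0.234 RPM, *Napsa* passed the expression limit only through the cryptorchid libraries. Its values were -3.02, -3.26, -2.35, -0.87 and -2.33 in control and -0.63 to 2.21 (median 1.25) in cryptorchid libraries, and its mean log2 difference of 3.42 (SE 0.81) rests on those few reads. Protein S, an anticoagulant and a ligand of the TAM receptors by which Sertoli cells take up dying germ cells, is the product of *Pros1*. It stood at 0.20, -0.94, -2.35, 0.35 and 1.41 in control and 1.79 to 4.05 (median 3.21) in cryptorchid libraries. Control replicate 3 was the lowest and control replicate 5 the highest of the controls, and the difference of 3.39 (SE 0.72) was 3.92 in replicates 1 to 3 and 2.42 in replicates 4 and above.

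*Emp2*, a tetraspan membrane protein, and *Sulf1*, a sulfatase that trims heparan sulfate, are on the study's apoptosis gene list. The study chose that list by loss of the histone mark H3K27me3 in ChIP-seq and by higher mRNA in this RNA-seq. The list is thus no independent evidence of direction. *Emp2* had 3.07, 1.95, 3.49, 3.30 and 2.15 in control and 4.0 to 5.22 (median 4.57) in cryptorchid libraries. The groups were 0.50 apart and the difference was 1.73 (SE 0.39). *Sulf1* was even across the controls, at 5.07, 5.36, 5.28, 5.23 and 5.13, and lay at 5.61 to 7.36 (median 6.61) in cryptorchid libraries. Cryptorchid replicate 2 (5.61) was nearest to the controls, and the difference was 1.38 (SE 0.28). The adhesion molecule gene *Nectin1* stood at 2.09, 2.77, 2.56, 2.06 and 2.07 in control and 3.34 to 4.83 (median 4.33) in cryptorchid libraries. The gap was 0.57 and the difference 1.73 (SE 0.42). *Cd109* (a TGF-beta co-receptor), *Clec10a* (a lectin of macrophages), *Evc2* (a ciliary protein of hedgehog signalling), *Thsd7b* (a thrombospondin repeat protein) and *Cped1* differed by 1.23, 1.57, 1.46, 1.64 and 1.82.

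Signalling enzymes were 4 genes with few outlying values. *Dusp26*, a dual specificity phosphatase, stood at 2.38, 1.97, 2.20, 2.97 and 2.41 in control and 3.63 to 4.5 (median 4.06) in cryptorchid libraries. Control replicate 4 was the highest control, 0.66 below the lowest cryptorchid library, and the difference was 1.64 (SE 0.39). *Cpne8*, a calcium-dependent lipid-binding copine, had 3.51, 3.88, 3.53, 3.61 and 3.38 in control and 4.37 to 5.54 (median 4.78) in cryptorchid libraries. The controls were close together, and the groups differed by 1.25 (SE 0.31). The phosphatase *Ppm1h* and the inhibitory G protein subunit *Gnai1* differed by 1.21 and 1.01.

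No role is given here for 4 genes. *Nlrp4f*, of a family of NLR genes expressed in germ cells and oocytes, stood at 4.66, 4.74, 5.64, 5.82 and 5.81 in control and 5.88 to 6.88 (median 6.56) in cryptorchid libraries. The gap was 0.06 and the difference 1.11 (SE 0.29). *D6Wsu163e* had 1.15, -1.26, 4.04, 3.54 and 2.87 in control and 4.11 to 5.20 (median 4.25) in cryptorchid libraries. Control replicates 1 and 2 were far below the other controls, and the difference of 2.41 (SE 0.71) was 1.58 without control replicate 2. *2210010C04Rik* had 0.89, 0.20, -1.35, 0.54 and -1.17 in control and 1.04 to 2.06 (median 1.40) in cryptorchid libraries. Its difference was 1.67 (SE 0.67), and *Gm20449* differed by 1.25. *Nlrp4f*, *2210010C04Rik* and *Gm20449* have near-identical relatives in the genome, so their reads are uncertain.

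Size within each replicate set was compared next. In replicates 1 to 3 (3 control and 3 cryptorchid libraries) the median difference of the 61 genes was 1.53 (0.39 for *Gnai1* to 4.08 for *Pax2*), beside 0.06 over all genes tested. In replicates 4 and above (2 control and 4 cryptorchid libraries) it was 1.53 (0.49 for *Zfp985* to 3.70 for *Hcn4*), beside 0.01 over all genes. The difference was above 1 in both sets for 41 genes (67.2%, against 3.97% of all genes tested, a direction that the rule itself fixed), in replicates 1 to 3 alone for 10 and in replicates 4 and above alone for 10. It was the larger in replicates 1 to 3 for 29 genes and in replicates 4 and above for 32.

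**Figure D3:**
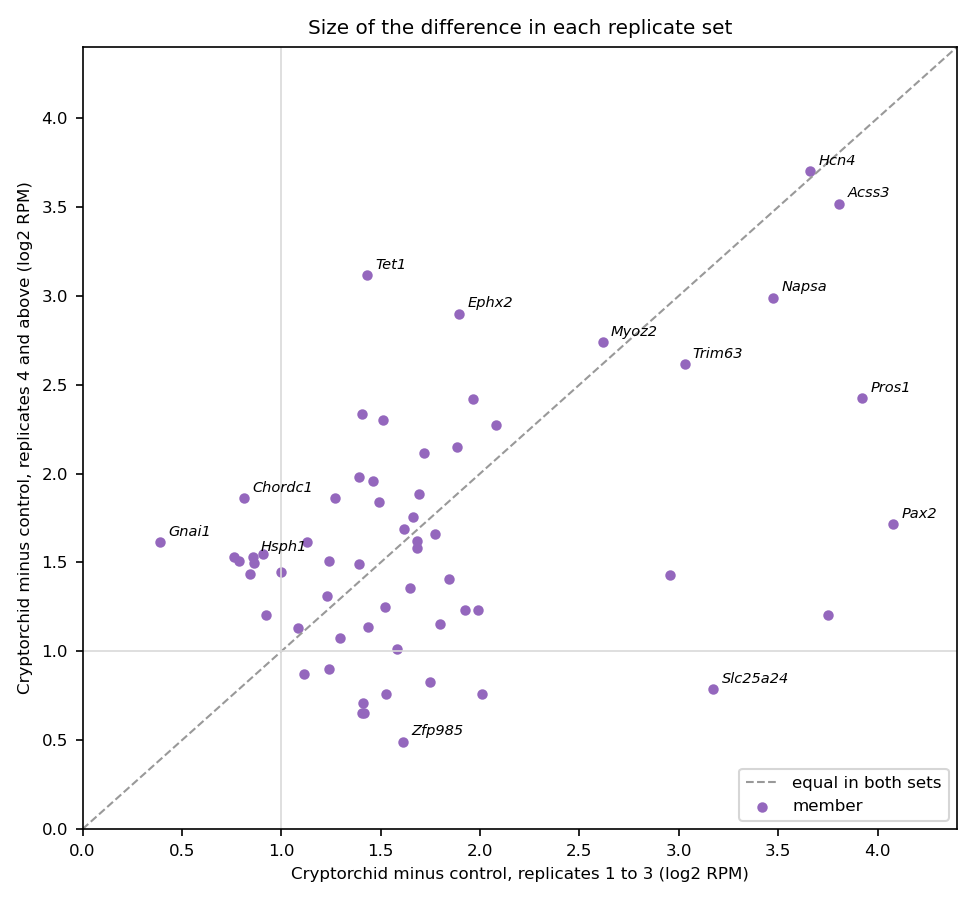
Cryptorchid minus control difference (log2 RPM) of each of the 61 genes in replicates 1 to 3 (horizontal) and in replicates 4 and above (vertical); the dashed line marks equal size and the grey lines mark 1. All points are above 0 on both axes, which full separation fixed in advance. Above 1 on both lie 41, and *Slc25a24*, *Pax2* and *Tet1* are among those farthest from the line.

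The sets differed by more than 1 for 11 of the 61 genes (18.0%), against 26.0% of all genes tested. *Pax2* and *Slc25a24* had larger differences in replicates 1 to 3 (4.08 and 3.17) than in replicates 4 and above (1.72 and 0.79), and each had 1 control library of replicates 1 to 3 far below the others. The reverse held for *Tet1*, *Gnai1*, *Chordc1* and *Ephx2*, with 1.43, 0.39, 0.81 and 1.90 in replicates 1 to 3 and 3.11, 1.61, 1.86 and 2.90 in replicates 4 and above. By limma, the interaction of condition and replicate set passed for none of the 61 genes after adjustment and for none at an unadjusted *P*-value under 0.05 (0.0605 for *Chordc1* was the smallest), against 0 (0%) and 269 (1.59%) of all genes. The values that chose the genes also enter this fit, and full separation limits how far the sets can differ, so nothing is read from these counts. The same test was run on simulated data with these libraries' means and totals and the same dispersion for all genes. It recovered 9.5% of genes with an 8-fold difference between the sets, so most such differences were missed there. That rate may not hold for single genes of the 61, whose interaction SE ran from 0.48 to 2.03 on the log2 scale.

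The genes were spread over 20 chromosomes, with at most 6 on one, and the closest pair was *Dlg4* and *Clec10a* on chromosome 11 (0.109 Mb apart; GRCm38, GENCODE vM21). Long genes were frequent among them, although spans ran from 2.38 kb (*Gm14409*) to 1526 kb (*Rbfox1*) and 35 of the 61 were under 100 kb. Their median span was 69.7 kb, against 24.7 kb over all genes tested, 22.4 kb over genes tested whose levels fell between the quartiles of theirs, and 14.2 kb over the 30 genes separated in the opposite direction. A span over 100 kb was seen in 26 of them (42.6%, against 14.7% of all), and 7 (11.5%, against 1.35%) exceeded 500 kb, which were *Rbfox1*, *Asic2*, *Thsd7b*, *Cacna2d3*, *Dpp10*, *Diaph2* and *Slc9a9*. *Hcn4*, with the widest gap, lies at chr9:58823412-58863175 on the plus strand and spans 39.8 kb. *Rbfox1*, the longest, lies at chr16:5885355-7411526. The exonic length was 6.12 kb in the median, against 4.11 kb.

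The relation to length was not particular to these genes. Over all genes tested, the median log2 difference was -0.09 for the 4154 genes under 10 kb, 0.04 at 10 to 30 kb, 0.16 at 30 to 100 kb, 0.23 at 100 to 300 kb, 0.47 at 300 to 500 kb and 0.45 for the 228 genes over 500 kb. It rose with span in both replicate sets, from -0.03 to 0.47 in replicates 1 to 3 and from -0.31 to 0.47 in replicates 4 and above. The 221 genes over 500 kb that are not among the 61 had a median of 4.43, 4.16, 4.82, 4.35 and 4.63 log2 RPM in control replicates 1 to 5 and of 4.85 to 5.12 in cryptorchid libraries. These groups did not overlap, although relative to the median of all genes in the same library control replicate 3 (0.95) was within the cryptorchid range of 0.44 to 1.01. The share of genes at least 2-fold higher differed little with span up to 300 kb (10.0% to 11.1%). It was 16.3% at 300 to 500 kb and 13.6% over 500 kb. The share at least 2-fold lower fell from 12.1% under 10 kb to 0.88% over 500 kb. The part of gene length in the levels of the 61 genes was not tested.

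**Figure D4:**
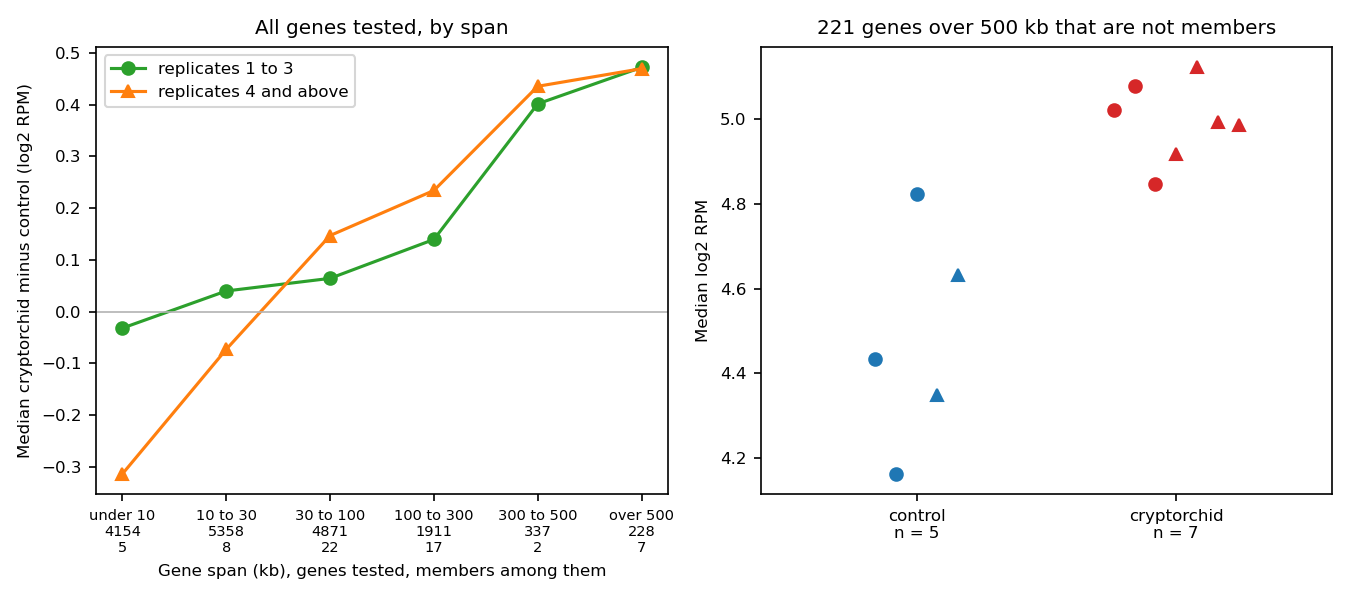
Left, median cryptorchid minus control difference (log2 RPM) of all genes tested by gene span, in replicates 1 to 3 (circles) and in replicates 4 and above (triangles), with the number of genes and of the 61 among them under each bin. It rises from -0.03 and -0.31 under 10 kb to 0.47 in both sets over 500 kb; right, the median log2 RPM of the 221 longest genes outside the 61 is 4.16 to 4.82 in control and 4.85 to 5.12 in cryptorchid libraries.

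Reads on a few of the genes cannot be assigned with certainty, since the counting strand is not stated. Exons of *Acss3*, *Slc3a1*, *Mindy2*, *Fhod3* and *Lrrc39* overlap those of a protein-coding gene on the opposite strand (*Ppfia2*, *Prepl*, *Gm10642*, *Gm9955* and *Trmt13*), and those of *Gm20449* and *Tut7* overlap another gene on the same strand.

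None of the 61 genes is on the marker lists of cell types, whose sums moved as follows. In bulk samples, fewer cells of a type and less RNA per cell cannot be told apart. As background for the counts of higher means below, 9596 of the 16932 genes tested had higher means in cryptorchid libraries. The 13 spermatid genes summed to 656 to 3566 RPM in control and 38.6 to 2505 RPM in cryptorchid libraries, 12 of 13 had lower means, and *Prm1*, *Prm2*, *Odf1* and *Gapdhs* were called lower by limma and none higher. The 16 genes of undifferentiated spermatogonia were present in both groups (1312 to 2003 and 1542 to 2327 RPM), 7 with higher means, with no call in either direction. For differentiating spermatogonia (7 genes) and spermatocytes (12 genes), 3 and 8 had higher means, and 1, *Stra8*, was called higher. For somatic cells, macrophage genes summed to 7.09 to 37.5 RPM in control and 11.9 to 46.3 RPM in cryptorchid libraries (6 of 10 higher, *Mrc1* called), lymphocyte genes to 14.4 to 29.8 and 17.9 to 78.7 RPM (3 of 5 higher, *Lck* called; *Nkg7* without reads in all libraries), and endothelial genes to 34.0 to 59.5 and 40.5 to 83.5 RPM (7 of 9 higher, *Cdh5* and *Tie1* called). Sertoli cell genes summed to 86.3 to 301 and 74.2 to 259 RPM (6 of 11 higher; *Clu*, at 6.01 log2 RPM in the control mean, and *Trf* were above the median gene), Leydig cell genes to 10.8 to 19.9 and 6.59 to 48.4 RPM (3 of 4 higher) and peritubular myoid cell genes to 33.2 to 84.0 and 10.4 to 55.1 RPM (4 of 7 higher, *Des* called higher and *Actg2* lower). The part of these cells in the levels of *Clec10a*, *Napsa*, *Pros1*, *Myoz2* and the others of the 61 was not tested.

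Immediate early genes, which respond to tissue handling, had higher means for 11 of 17 (median 0.31), beside 9596 of the 16932 genes tested, with none called. The cold-inducible genes *Cirbp* and *Rbm3* both had lower means, with *Cirbp* called lower. Of 12 genes for H3K27 methylation and demethylation, 9 had higher means (median 0.22) and none was called. The study's own lists had higher means for 24 of 25 development genes (none of the 61 among them, 9 called higher). For apoptosis genes it was 13 of 13 (5 called higher), beside 3.56% of all genes tested called higher. The study chose these genes by loss of the histone mark H3K27me3 in ChIP-seq and by higher mRNA in this RNA-seq. As the mRNA criterion used the same libraries, nothing is read from their counts.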

How the data were processed

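The authors trimmed reads with Trim Galore 0.6.6, mapped them to mm10 with HISAT2 2.1.0 (versions from the submitters' processing notes), counted protein-coding genes with SeqMonk, and deposited the values as log2 RPM, with libraries not pooled. The counting strand is not given in the sources used here. Groups and replicate numbers came from the sample titles, and 0 columns belonged to no sample. Reads were recovered from the steps of the values (a gene without reads stands for 0.9 reads; 100% of values under 1000 reads were whole within 0.05). Read numbers cover counting error only.

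Differences of mean log2 RPM had no pseudocount added, and genes were tested where mean RPM was above -1 on the log2 scale. Tests used limma 3.58.1 (eBayes with trend) in R 4.3.3, two-sided, with Benjamini-Hochberg adjustment over 16932 genes, and SE are from that fit. On simulated data with 200 genes changed 8-fold among 16932, 98.5% were recovered for the condition. The simulated libraries were independent and all genes had the same dispersion. This rate thus does not give the power for differences of the size seen here (median 2.94-fold for the 61 genes). Ratios of mean RPM had 0.1 RPM added. Other values came from Python 3.11.15 (numpy 2.4.6, pandas 2.3.3), plots from matplotlib 3.10.9. Positions are from GENCODE vM21 on GRCm38 (mm10) and promoter sequences from RefSeq (GRCm38.p6); a window was matched by symbol for 45 of 61 genes. Same-group libraries differed by at least 12.8 times the sampling noise, so no pair looked like 1 library deposited again; this does not show separate animals.

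The members and gene lists were chosen with earlier results of these data known. Values in every library are given for the 12 largest differences, the 8 widest gaps, the 6 highest levels, members of the study's lists, the 4 largest differences between replicate sets, and the leaders of each function group; the values of 2 members are not reported here. Alternatives were median centring, quantile normalization, pseudocounts, filters, size limits, a common floor, mean RPM, array weights, voom, a term for the replicate set, a replicate block, and leaving out each library; the rule and fits within each replicate set were added after the data were seen.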

Additional observations from a re-analysis of the deposited data

Results flagged for a closer look

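Among 60 groups of libraries (the control and the cryptorchid libraries of 30 genes), 3 had a library far from the rest by Dixon's test; chance flags about 1 in 20 groups. *Myoz2* had no reads in control replicate 2, listed at -5.00 log2 RPM, against -1.46 to -0.35 in the other control libraries. *Slc25a24* was low in control replicate 2, at -1.68 against 2.55 to 3.50. *Crebrf* was low in cryptorchid replicate 1, at 6.66 against 7.32 to 7.82. The causes were not tested.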

How the results depend on the processing

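The median log2 difference of the 61 genes moved by less than the spread between replicates under all of its alternatives, between 1.36 with log2(RPM + 1) and 1.6 with the replicate block, and between 1.46 and 1.6 on leaving out single libraries. The number of genes that met the rule was 33 with a size limit of 1.5, 547 in replicates 1 to 3 alone and 823 in replicates 4 and above alone (51 of the 61 in each), and 69 to 129 on leaving out single libraries. Genes higher by limma were 385 with the limit on log2 of the mean RPM at 2 and 287 in replicates 1 to 3 alone, and 501 to 750 on leaving out single libraries. After adjustment, 1 higher gene and none of the 61 passed, against 15 (7 of the 61) with a term for the replicate set and 252 (41 of the 61) with array weights; without cryptorchid replicate 2 or 6, 3 higher genes passed, 1 of them a member. No interaction with the replicate set passed under any alternative run, including each library left out (0 to 0 members). Over the 30 genes with values in every library, 560 of 570 alternative values moved by less than the spread between replicates and none changed sign. Full separation fixed the sign in advance except under median centring and quantile normalization, so nothing is read from the signs. *Napsa* (1.41), *Trim63* (1.16), *Myoz2* (1.24), *Hcn4* (2.06) and *2210010C04Rik* (0.95) were smaller with log2(RPM + 1); the others that moved were *Hsph1* (0.86) and *Crebrf* (0.76) in replicates 1 to 3, and *Crebrf* (1.53), *Tet1* (3.11) and *Dusp26* (1.23) in replicates 4 and above.

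Same-numbered libraries deviated together and matched each other best in replicates 1 to 4 (r of 0.347, 0.363, 0.411 and 0.250) but not in replicate 5 (0.0488), whose control matched cryptorchid replicate 7 best. As an r over 0.1 in every pair was required and no source gives the pairing, the main fits were unpaired. The replicate block gave 778 higher and 900 lower genes, so that 46.4% were higher against 60.2% without it (382 higher, 45 of them members, and 567 lower after adjustment), and a median difference of the members of 1.6. The edgeR test on recovered reads was not run, because the deposited unit is log2. Few reads limit *Napsa*, *Trim63*, *Myoz2* and *Hcn4*, and the number of libraries limits any comparison between the replicate sets.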
